A study of Rattus norvegicus with 12 samples.

Results

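The genes described here are 8 members of the annexin family in rat cerebral cortex, Anxa1, Anxa2, Anxa3, Anxa4, Anxa5, Anxa6, Anxa7 and Anxa11, out of 17268 genes in the count table. They were chosen by gene symbol, from a list drawn up with the counts and group values of these same libraries known, so every fold change and adjusted p of a member below describes it and is no independent evidence. The table holds 12 annexin symbols, and the other 4 (Anxa8, Anxa9, Anxa10 and Anxa13) are given by their counts only. The member with the fewest counts was Anxa1, with 37 in Sham replicate 1, and the annexin outside the list with the most was Anxa9, with 9 in a Model library.

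RNA was sequenced from the cerebral cortex of adult male Sprague Dawley rats in 4 groups of 3 libraries, and the labels describe no genetic change in any of them. Sham rats had the carotid surgery without a clot, while Model rats had a blood clot from a donor rat placed at the origin of the middle cerebral artery and no treatment. The rt-PA rats had the same clot and intravenous rt-PA, the recombinant form of tissue plasminogen activator that dissolves clots, at 6 h. The rt-PA+Acu rats had the clot, acupuncture at the GV26 and PC6 acupoints at 2 h and rt-PA at 6 h. No group analysed here had acupuncture alone, so acupuncture and its combination with rt-PA cannot be told apart. The time at which cortex was taken for RNA, and whether the sampled piece held the infarct, are not given in the sources used here.

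Annexins are soluble proteins that bind membranes rich in negatively charged phospholipids when calcium rises. They share a conserved core that carries the calcium and membrane binding, and differ in the N-terminal tail through which several of them bind S100 proteins. In injured brain they are known from several settings: annexin A1 as a glucocorticoid-induced protein that restrains leukocyte entry through formyl peptide receptors, annexin A2 as a cell-surface assembly site for plasminogen and tissue plasminogen activator, annexin A5 as a protein that coats exposed phosphatidylserine on dying cells, and others in the patching of torn plasma membrane. The second of these roles is why the family bears on a study of rt-PA, since annexin A2 binds the drug's natural counterpart.

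Promoters are shown for Anxa1 and Anxa2, the members whose change passed both thresholds used here (an adjusted p under 0.05 and a change of over 2-fold). Each runs 5′ to 3′ from 250 bases before to 50 after the start of the gene in RefSeq on the build GRCr8, and a promoter was at hand for 7 of the 8 members, all but Anxa6. The Anxa1 window is chr1:227303683-227303982 on the minus strand and the Anxa2 window chr8:78986002-78986301 on the plus strand, with capitals for the letters that matched a searched motif.
Anxa1: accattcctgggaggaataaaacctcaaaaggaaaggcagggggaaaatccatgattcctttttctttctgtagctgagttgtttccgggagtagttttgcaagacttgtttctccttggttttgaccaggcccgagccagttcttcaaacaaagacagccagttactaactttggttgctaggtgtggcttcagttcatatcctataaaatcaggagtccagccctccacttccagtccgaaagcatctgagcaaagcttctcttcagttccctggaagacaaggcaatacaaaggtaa
Anxa2: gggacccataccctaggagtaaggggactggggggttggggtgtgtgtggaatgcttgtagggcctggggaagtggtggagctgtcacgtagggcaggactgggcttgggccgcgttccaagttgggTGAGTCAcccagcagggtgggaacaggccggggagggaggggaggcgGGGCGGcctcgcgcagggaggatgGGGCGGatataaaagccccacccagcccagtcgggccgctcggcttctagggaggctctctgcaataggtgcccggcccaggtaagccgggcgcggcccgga
The motifs were searched on both strands as TGANTCA (AP-1), TTCNNNGAA (STAT), GGGCGG (SP1) and AGAACA (a single arm of the glucocorticoid response element). The Anxa2 window held the AP-1 letters once, beginning 123 bases before the start, and the SP1 letters beginning 76 and 52 bases before it. The Anxa1 window held none of the 4 motifs. Among the 7 members with a promoter, the AP-1 letters were found in Anxa2 alone, against 7.33% of 33469 promoters of the same length. The SP1 letters were in every one of the 7 but Anxa1, against 33.1% of all promoters. The STAT letters and the glucocorticoid letters were in none of the 7, against 8.87% and 20.7%. The window of Anxa1 was also the poorer in G and C, with 45% against 68% for Anxa2. A match of letters is a description of the sequence and shows no binding.

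Total counts per library lay between 11678450 and 13616935, and 3 counts stood for 0.208 to 0.262 CPM, the unit used here for counts scaled to the library size after TMM normalization. The neuron markers of the cortex label were present throughout, and Slc17a7, the vesicular glutamate transporter of cortical excitatory neurons, stood between 525 and 1876 CPM in every library. Within rt-PA+Acu, replicate 3 stood nearer to the Model and rt-PA libraries at several genes, for example at Msr1, a scavenger receptor of macrophages, with 15.4 CPM against 1.09 and 1.57 in replicates 1 and 2. Model replicate 3 stood apart from the other Model libraries at Anxa3, as given with that gene. It was also the lowest of them at Anxa2 (134 CPM, against 190 and 226) and at Anxa7 (82.5 CPM, against 105 and 107). Fits without each library are given for the members where they alter a statement, and as counts in the closing section. Calls of other named genes were not examined this way. Contrasts are written with the first group over the second, as in Model/Sham, SE is the standard error of a log2 fold change, and FDR stands for its p after Benjamini-Hochberg adjustment over all genes tested with edgeR.

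In short, the annexin transcripts did not move as 1 family. In the Model group 5 of the 8 rose against Sham with an adjusted p under 0.05, where 27.3% of 12884 genes tested did so. In either direction 54% of genes passed. The 5 members were led by Anxa2 at 12.6-fold and Anxa1 at 2.52-fold, and with all libraries in the fit no member passed as lower. After rt-PA alone, Anxa1 was the member with the largest further difference, at 3.07-fold over Model, which did not pass the adjusted threshold. In rt-PA+Acu, Anxa2 stood at 0.112 of its rt-PA level and Anxa1 at 0.198, Anxa4 and Anxa5 were also lower, and Anxa6 and Anxa11 were higher. Of these last 4, Anxa5 alone passed in all 6 fits that left out 1 library, while Anxa11 passed in 4 of them and Anxa4 and Anxa6 in 1 each.

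**Figure D1:**
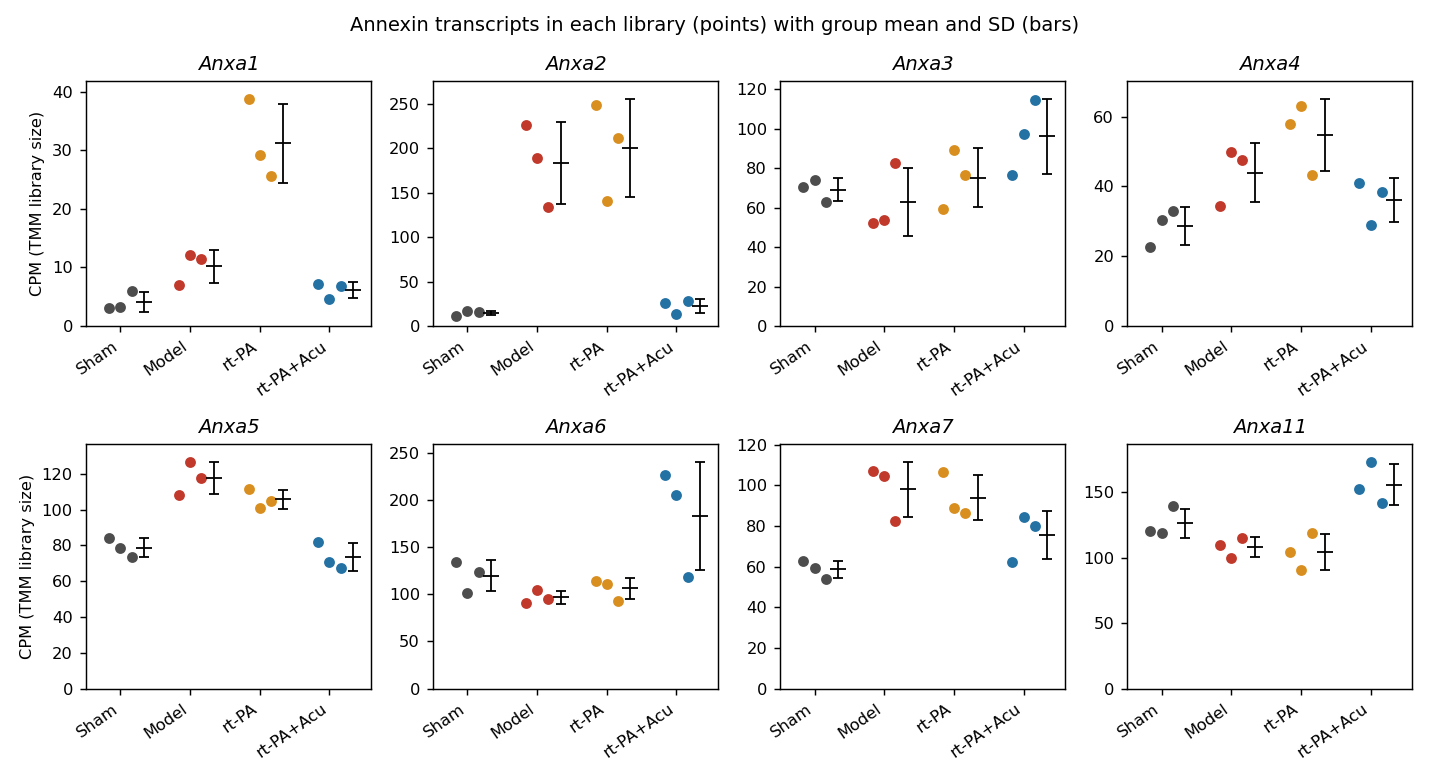
Level of each of the 8 annexin transcripts in CPM (vertical axes, each from 0, each gene on its own scale), with a point per library and a bar for the group mean and SD of 3 libraries. Anxa2 falls into a low pair of groups (Sham and rt-PA+Acu, at most 27.6 CPM) and a high pair (Model and rt-PA, at least 134 CPM). Anxa1 is highest in the 3 rt-PA libraries, and Anxa3, Anxa6 and Anxa11 have their highest group means in rt-PA+Acu.

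Anxa2, whose protein forms a complex with S100A10 that holds plasminogen and tissue plasminogen activator at the cell surface, had 11.7, 16.7 and 15.5 CPM in the 3 Sham libraries. It had 226, 190 and 134 CPM in Model, 249, 140 and 211 in rt-PA, and 25.7, 13.8 and 27.6 in rt-PA+Acu. The lowest injured library without acupuncture thus stood well above the highest Sham or rt-PA+Acu library, and neither pair of groups overlapped the other. Within each pair the libraries did overlap, Sham with rt-PA+Acu and Model with rt-PA. Group means with SD (n = 3) were 14.6 ± 2.59 for Sham, 183 ± 46.3 for Model, 200 ± 55.1 for rt-PA and 22.4 ± 7.50 for rt-PA+Acu.

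The log2 fold change of Anxa2 was 3.66 (SE 0.22, FDR 1.56e-05) in Model/Sham. In rt-PA+Acu/rt-PA it was -3.16 (SE 0.31, FDR 0.00118), and in rt-PA+Acu/Model -3.03 (SE 0.30, FDR 0.000873). Each of these was called in all 6 fits that left out 1 library. In rt-PA/Model the log2 fold change was 0.13 (95% interval -0.44 to 0.70, FDR 0.905), and in rt-PA+Acu/Sham it was 0.62 (95% interval 0.002 to 1.23, FDR 0.214). The interval against Sham reaches over 2-fold, so a remaining difference of that size lies within what these libraries allow.

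Anxa1, which codes for the glucocorticoid-induced annexin also called lipocortin, had 2.99, 3.22 and 6.03 CPM in Sham, from 37, 42 and 69 counts. It had 6.95, 12.2 and 11.5 CPM in Model, 38.8, 29.3 and 25.6 in rt-PA, and 7.16, 4.62 and 6.74 in rt-PA+Acu. All 3 rt-PA libraries stood above all 9 others, and the rt-PA+Acu libraries overlapped both Sham and Model. Group means with SD (n = 3) were 4.08 ± 1.69 for Sham, 10.2 ± 2.84 for Model, 31.2 ± 6.81 for rt-PA and 6.17 ± 1.36 for rt-PA+Acu.

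The log2 fold change of Anxa1 was 1.33 (SE 0.34, FDR 0.0102) in Model/Sham, and lay between 1.15 and 1.71 when 1 library was left out. In rt-PA/Model it was 1.62 (SE 0.25, FDR 0.162), from a p of 0.000237 before the adjustment. DESeq2 on the same genes gave an adjusted p of 2.24e-06 for it, so whether this difference passes depends on the tool. The smallest adjusted p of any gene in that comparison with edgeR was 0.0847. In rt-PA+Acu/rt-PA the log2 fold change of Anxa1 was -2.33 (SE 0.24, FDR 0.00123). Against Model it was -0.72 (SE 0.29, FDR 0.0864), and against Sham 0.60 (95% interval -0.16 to 1.37, FDR 0.317). Without Model replicate 1 the difference from Model had an FDR of 0.0425. Anxa1 and Anxa2 therefore had the same direction in Model and in rt-PA+Acu, while in rt-PA their values parted, with Anxa1 at 3.07-fold and Anxa2 at 1.09-fold of Model.

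The cortex samples are mixtures of cells, and more cells of a type cannot be told apart from more RNA per cell. For the marker counts here and below, 9.43% of all genes tested were called higher and 12% lower in Model/Sham. In rt-PA+Acu/rt-PA 7.17% were called higher and 8.16% lower. The markers of monocytes and macrophages summed to 56.8 to 76.3 CPM for Sham, 190 to 271 for Model, 279 to 490 for rt-PA and 33.6 to 64.0 for rt-PA+Acu. Of the 6 of these markers tested, 3 were called higher in Model/Sham and all 6 were called lower in rt-PA+Acu/rt-PA, and Ms4a7 was at 0 in every Sham library. Neutrophil markers summed to 7.27 to 11.9 CPM for Sham, 4.96 to 17.1 for Model, 15.1 to 82.1 for rt-PA and 3.74 to 5.47 for rt-PA+Acu, where Mmp8 was at 0 in every library. Of them 1 of 4 tested was called higher in Model/Sham and 4 of 5 tested lower in rt-PA+Acu/rt-PA. Endothelial markers summed to 160 to 204 CPM for Sham, 221 to 433 for Model, 295 to 427 for rt-PA and 102 to 112 for rt-PA+Acu, with 1 of 6, Kdr, called higher in the first comparison and 4 of 6 lower in the second. Kdr went from a mean of 16.4 CPM in Sham to 117 in Model, and of all 6 markers 4 had higher values there and 2, Tek and Tie1, lower. Pecam1 had 118 CPM in Model replicate 3 against 37.9 and 43.7 in replicates 1 and 2, and Esam 52.5 against 17.2 and 24.3. Markers of fibroblasts and meninges summed to 190 to 290 CPM for Sham, 55.7 to 134 for Model, 122 to 430 for rt-PA and 148 to 266 for rt-PA+Acu, with 2 of 7 called lower in Model/Sham, and 1 of 7 called in each direction in rt-PA+Acu/rt-PA. The sum of choroid plexus markers was 0.889 to 2.37 CPM for Sham, 9.50 to 17.1 for Model, 3.47 to 6.71 for rt-PA and 0.872 to 1.87 for rt-PA+Acu. The 1 of them tested, Kl, was called higher in Model/Sham, at a log2 fold change of 4.31, and lower in rt-PA+Acu/rt-PA, at -4.32. Kl had a mean of 0.539 CPM in Sham and 10.9 in Model, so the rise of the sum was in the main that of 1 gene. Ttr and Folr1 stood at 0.436 CPM or less in every library. Clic6 went from 0 in Sham to a mean of 1.05 CPM in Model, and Kcnj13 fell from 0.772 to 0.0784. In rt-PA/Model, where Anxa1 had its further difference, all 5 neutrophil markers tested had higher values in rt-PA (median log2 fold change 1.79), as had all 7 of monocytes and macrophages (1.34) and all 6 of fibroblasts and meninges (2.21), against a median of 0.004 over all genes. None of these was called by edgeR, while DESeq2 called 6 of them, with the smallest adjusted p, 1.94e-06, for Cd163 of macrophages. DESeq2 called 0.595% of all genes in this comparison. Of the 5 neutrophil markers tested, only Cxcr2 had every rt-PA library above every Model library, and the sums overlapped. S100a8 had 11.2 CPM in rt-PA replicate 1 and 1.62 in replicate 3, against 3.31 in Model replicate 3. The groups did not overlap at Ccr2, Msr1, Cd163 and Mrc1 of macrophages or at Dcn, Lum, Col1a1 and Col1a2 of fibroblasts. Col3a1, where they overlapped, had 17.3 CPM in rt-PA replicate 2 against 28.1 in Model replicate 2. These lists moved in part with Anxa1 and Anxa2, both of which such cells are known to express, and their part in the result was not tested.

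Anxa5, the gene of the phosphatidylserine-binding annexin used as a probe for dying cells, had 84.3, 78.3 and 73.7 CPM in Sham and 108, 127 and 118 in Model. It had 111, 101 and 105 CPM in rt-PA and 82.1, 71.0 and 67.4 in rt-PA+Acu. Every Model and rt-PA library stood above every Sham and rt-PA+Acu library, on a far smaller scale than for Anxa2. Its log2 fold change was 0.59 (SE 0.10, FDR 0.00119) in Model/Sham, -0.53 (SE 0.11, FDR 0.011) in rt-PA+Acu/rt-PA and -0.68 (SE 0.12, FDR 0.00555) in rt-PA+Acu/Model. All 3 stayed under an adjusted p of 0.05 in each of the 6 fits that left out 1 library.

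Anxa7, the gene of synexin, which was first known for aggregating secretory granules, had 62.7, 59.2 and 54.2 CPM in Sham and 107, 105 and 82.5 in Model. It had 107, 89.0 and 86.2 CPM in rt-PA and 62.1, 84.4 and 80.1 in rt-PA+Acu. The Model libraries all stood above Sham, and the rt-PA+Acu libraries stood below rt-PA but overlapped both Sham and Model. For Anxa7 the log2 fold change was 0.75 (SE 0.12, FDR 0.00122) in Model/Sham, and -0.32 (SE 0.15, FDR 0.137) in rt-PA+Acu/rt-PA.

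Anxa4, a member known from epithelial membranes, had 22.6, 30.2 and 32.9 CPM in Sham and 34.3, 50.0 and 47.5 in Model. It had 58.0, 63.0 and 43.3 CPM in rt-PA and 41.1, 29.0 and 38.5 in rt-PA+Acu. Its group means followed the order of Anxa1, from 28.6 ± 5.39 (SD, n = 3) in Sham over 36.2 ± 6.35 in rt-PA+Acu and 43.9 ± 8.45 in Model to 54.8 ± 10.2 in rt-PA, and each group overlapped the next. The log2 fold change was 0.63 (SE 0.18, FDR 0.0194) in Model/Sham, where it passed in 4 of the 6 fits that left out 1 library and missed without Model replicate 2 (FDR 0.0722) or Sham replicate 1 (FDR 0.0691). In rt-PA+Acu/rt-PA it was -0.60 (SE 0.19, FDR 0.0414), and it passed in only 1 of those 6 fits, the one without rt-PA replicate 3.

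Anxa6 and Anxa11, like Anxa3 (given below), had their highest group means in rt-PA+Acu. Anxa6, the largest annexin, with a duplicated core, known from endosomes and cholesterol handling, had 134, 101 and 123 CPM in Sham and 90.8, 105 and 95.4 in Model. It had 114, 111 and 93.0 CPM in rt-PA and 226, 205 and 118 in rt-PA+Acu. Replicates 1 and 2 of rt-PA+Acu stood above all other libraries, while replicate 3 lay within the Sham range. Anxa6 had a log2 fold change of 0.79 (SE 0.23, FDR 0.0339) in rt-PA+Acu/rt-PA and 0.92 (SE 0.23, FDR 0.018) in rt-PA+Acu/Model. Without rt-PA+Acu replicate 3 these were 1.03 and 1.15 and were called, whereas without each of the other 5 libraries the first missed the threshold, with FDR of up to 0.111. The second missed in 4 of those 5 fits, with FDR of up to 0.065.

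Anxa11, whose protein is known for tethering RNA granules to lysosomes that travel along axons, had 120, 119 and 139 CPM in Sham and 110, 99.6 and 115 in Model. It had 104, 90.4 and 119 CPM in rt-PA and 153, 173 and 142 in rt-PA+Acu. All rt-PA+Acu libraries stood above all 9 others, and all Model libraries below Sham. Anxa11 had a log2 fold change of 0.58 (SE 0.13, FDR 0.0155) in rt-PA+Acu/rt-PA and 0.53 (SE 0.12, FDR 0.0127) in rt-PA+Acu/Model. The first passed in 4 of the 6 fits that left out 1 library, missing without rt-PA+Acu replicate 2 (FDR 0.0588) or rt-PA replicate 1 (FDR 0.0526), and the second in 5 of 6, missing without Model replicate 2 (FDR 0.0644). In rt-PA+Acu/Sham the log2 fold change of Anxa11 was 0.31 (95% interval 0.04 to 0.57, FDR 0.157), and in Model/Sham it was -0.21 (95% interval -0.44 to 0.02, FDR 0.104).

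Neuron markers summed to 7406 to 8037 CPM for Sham, 5399 to 5682 for Model, 4189 to 5343 for rt-PA and 5136 to 7875 for rt-PA+Acu, with 2 of 7 called lower in Model/Sham and 2 of 7 higher in rt-PA+Acu/rt-PA. The list was mixed in Model/Sham, where 4 of 7 had lower values and 3 higher. Camk2a had the largest fall, from a mean of 2673 CPM in Sham to 540 in Model. Gad1 (log2 fold change 0.87, FDR 0.000876) and Tubb3 (0.75, FDR 0.000139) were higher in Model, under the 2-fold line. In rt-PA+Acu/rt-PA 5 of 7 had higher values and 2 lower. Oligodendrocyte markers summed to 12010 to 17920 CPM for Sham, 1672 to 8508 for Model, 2693 to 11430 for rt-PA and 3223 to 21080 for rt-PA+Acu, with 5 of 6 called lower in Model/Sham and a median log2 fold change of 0.93 with none called in rt-PA+Acu/rt-PA. Astrocyte markers summed to 3066 to 3720, 3786 to 5601, 4255 to 4976 and 4720 to 6632 CPM in the 4 groups in the same order, with 4 of 6 called lower and 1 higher in Model/Sham and 3 of 6 higher in rt-PA+Acu/rt-PA. In Model/Sham the astrocyte marker called higher was Gfap, at a log2 fold change of 3.1. The other 5 had lower values there, so the astrocyte sum rose in Model through Gfap alone. The part of these marker lists in the values of Anxa6 and Anxa11 was not tested.

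Anxa3, an annexin known from microglia and neutrophils, had 70.3, 74.2 and 62.9 CPM in Sham and 52.1, 53.5 and 82.6 in Model. It had 59.4, 89.2 and 76.6 CPM in rt-PA and 76.7, 97.4 and 114 in rt-PA+Acu. Model replicate 3 stood above all Sham libraries and Model replicates 1 and 2 stood below them. The log2 fold change in Model/Sham was -0.13 (95% interval -0.54 to 0.27, FDR 0.553) with all libraries and -0.37 (FDR 0.0135) without Model replicate 3. The rt-PA+Acu libraries all stood above Sham, with a log2 fold change of 0.48 (95% interval 0.12 to 0.83, FDR 0.114), which reached an adjusted p of 0.031 without rt-PA+Acu replicate 1. Microglia markers summed to 511 to 630 CPM for Sham, 383 to 447 for Model, 384 to 436 for rt-PA and 419 to 464 for rt-PA+Acu, with 3 of 6 called lower in Model/Sham and 2 of 6 higher in rt-PA+Acu/rt-PA. Siglech was at 0 in every library of all groups but rt-PA. Their part in the values of Anxa3 was not tested.

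**Figure D2:**
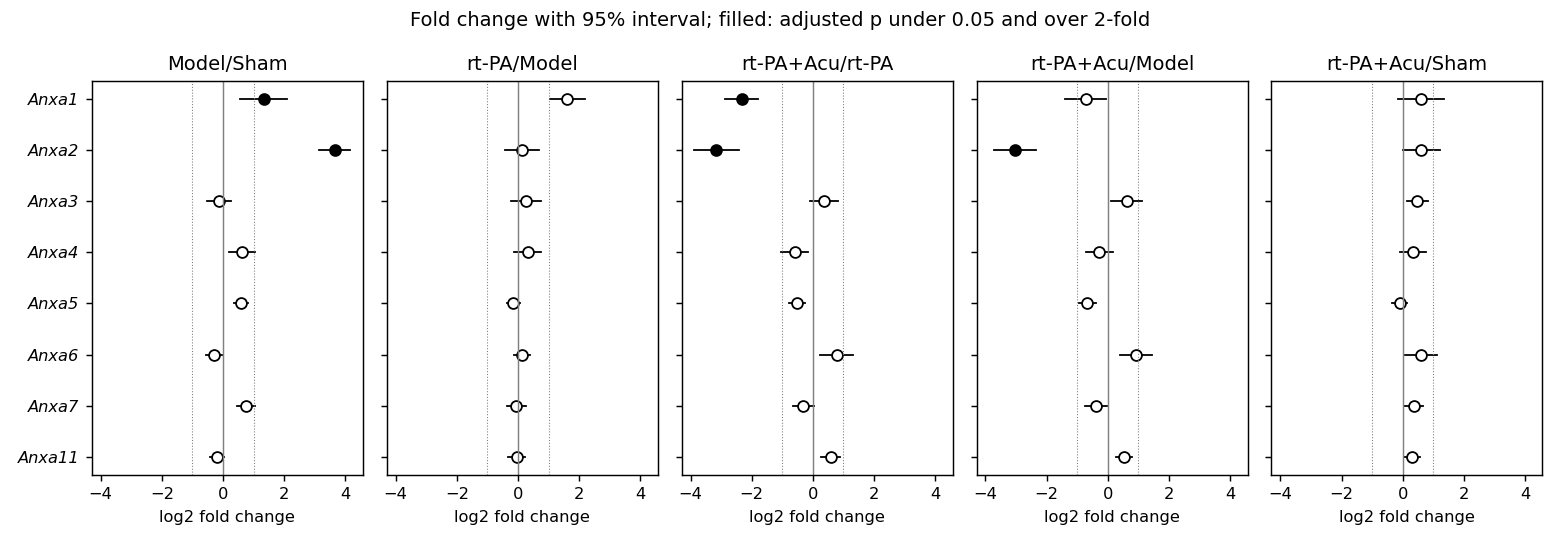
Log2 fold change (horizontal axes) of each annexin in the 5 comparisons, each from a fit of 6 libraries, with its 95% interval as a line, filled points for changes with an adjusted p under 0.05 and over 2-fold, and dotted lines at 2-fold. Filled points are Anxa1 and Anxa2 in Model/Sham and in rt-PA+Acu/rt-PA, and Anxa2 in rt-PA+Acu/Model.

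Counted over the members, 2 of the 8, Anxa1 and Anxa2, were called higher in Model/Sham and none lower, where 9.43% of 12884 genes tested were called higher and 12% lower. At an adjusted p under 0.05 alone, 5 of 8 were higher, against 27.3% of genes. In either direction, 21.5% of genes were called and 54% had an adjusted p under 0.05, shares near those of the members. With 1 library left out, Anxa3 passed as lower without Model replicate 3, and Anxa6 without Sham replicate 2 (FDR 0.0207). The libraries of the 2 groups did not overlap at 6 of 8 members, against 63.7% of genes, a share near the background. The median log2 fold change was 0.61 over the members and 0.01 over all genes tested.

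In rt-PA/Model no member was called, and 0% of 12941 genes were called by edgeR, where 1284 genes and 1 member, Anxa1, had an unadjusted p under 0.05. DESeq2 called 0.595% of genes, Anxa1 among them. The groups did not overlap at 1 of 8 members, again Anxa1, against 16% of genes. Over the other 7 members the log2 fold change lay between -0.15 (Anxa5) and 0.32 (Anxa4), with adjusted p of at least 0.626.

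In rt-PA+Acu/rt-PA 2 of 8 members, again Anxa1 and Anxa2, were called lower and none higher, where 8.16% of 12999 genes were called lower and 7.17% higher. At an adjusted p under 0.05 alone, 4 of 8 members were lower, against 17.7% of genes, and 2 of 8 higher, against 17%. These 6 members became 3 without rt-PA+Acu replicate 2 or rt-PA replicate 1, and 4 without rt-PA+Acu replicate 1 or rt-PA replicate 2. The groups did not overlap at 7 of 8 members, all but Anxa3, against 51.2% of genes. The median log2 fold change was -0.42 over the members, while over all genes it lay at -0.003. This comparison shares its rt-PA libraries with rt-PA/Model and none with Model/Sham.

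In rt-PA+Acu/Sham no member was called or had an adjusted p under 0.05, where 2.06% of 12775 genes were called and 5.1% had an adjusted p under 0.05 with edgeR, and DESeq2 called no member either. At an unadjusted p under 0.05 there were 5 of 8 members, beside 2964 of all genes tested, and of these 5 Anxa3, Anxa6, Anxa7 and Anxa11 had log2 fold changes of 0.31 to 0.61 and Anxa2 one of 0.62. The groups did not overlap at 2 of 8, Anxa3 and Anxa11, both higher in rt-PA+Acu, against 30.7% of genes. With 1 library left out, Anxa3 and Anxa7 passed without rt-PA+Acu replicate 1 (FDR 0.031 and 0.0424). Anxa6 passed without rt-PA+Acu replicate 3 (FDR 0.0115). A miss of the threshold does not show that the members returned to their Sham levels, and 7 of the 8 had a fold change above 1.

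In rt-PA+Acu/Model Anxa2 alone was called, lower, where 6.62% of 12855 genes were called lower. At an adjusted p under 0.05, Anxa2 and Anxa5 were lower, against 16.9% of genes, and Anxa6 and Anxa11 higher, against 17.4%. These 4 became 2, Anxa2 and Anxa5, without Model replicate 2. Anxa3 also passed, higher, without rt-PA+Acu replicate 1 or Model replicate 3, and Anxa1, lower, without Model replicate 1. The groups did not overlap at Anxa2, Anxa5, Anxa6 and Anxa11, 4 of 8 members, against 50.1% of genes.

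The 8 genes together took 0.0462% to 0.0492% of all counts for Sham, 0.0703% to 0.0750% for Model, 0.0734% to 0.0907% for rt-PA and 0.0622% to 0.0643% for rt-PA+Acu. Their summed level averaged 499 CPM for Sham, with an SD of 15.1 over 3 libraries, 721 ± 29.9 for Model, 771 ± 65.3 for rt-PA and 649 ± 46.6 for rt-PA+Acu. The rt-PA+Acu sum thus stayed above every Sham library while its make-up was unlike that of Model or rt-PA. Anxa2 held 2.30% to 3.46% of the counts of the 8 genes for Sham, 19.5% to 30.8% for Model, 19.7% to 29.6% for rt-PA and 2.03% to 4.64% for rt-PA+Acu. Anxa6 held 21.0% to 26.3% for Sham, 12.3% to 14.1% for Model, 12.2% to 15.5% for rt-PA and 19.8% to 33.5% for rt-PA+Acu. Anxa11 held 23.7% to 27.4% for Sham, 13.5% to 16.8% for Model, 12.4% to 15.6% for rt-PA and 22.7% to 25.5% for rt-PA+Acu. Long transcripts give more counts, so a share is compared between libraries and not between genes, and a share falls when another gene of the sum rises.

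**Figure D3:**
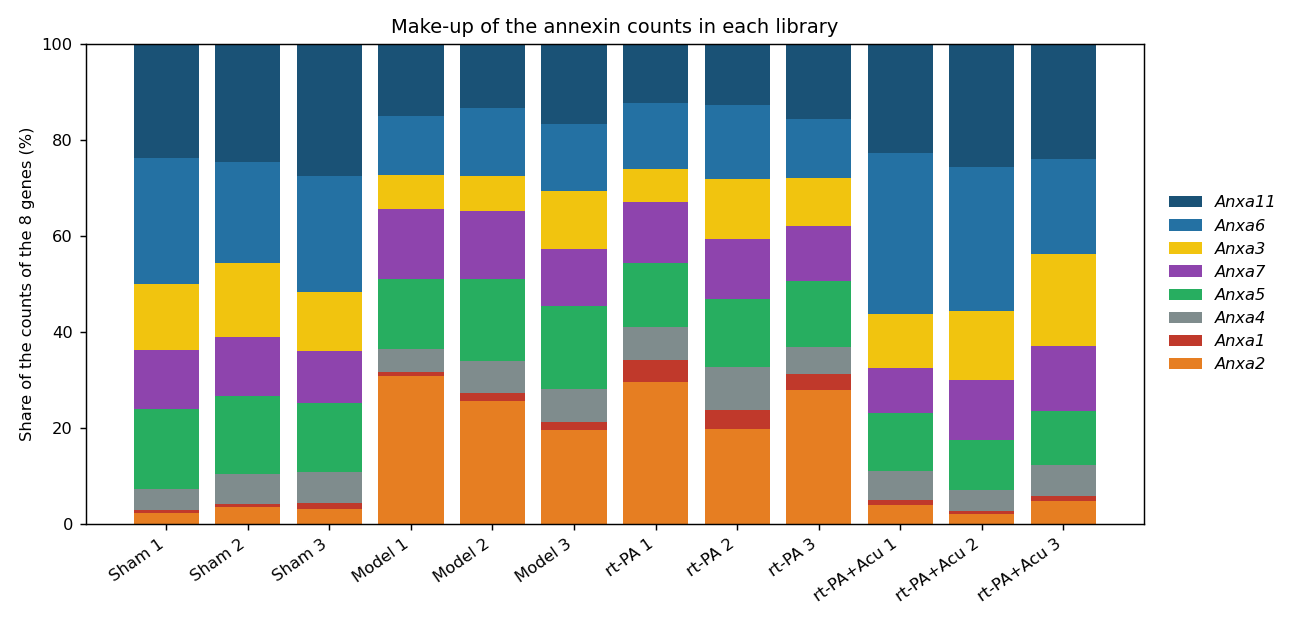
Share of the counts of the 8 annexins (vertical axis, percent) taken by each gene, with a stacked bar for each of the 12 libraries. Anxa2 takes between 19.5% and 30.8% in the 6 Model and rt-PA libraries and at most 4.64% in the 6 Sham and rt-PA+Acu libraries.

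By the order of group means, Sham was lowest for Anxa1, Anxa2, Anxa4 and Anxa7, Model for Anxa3 and Anxa6, rt-PA for Anxa11 and rt-PA+Acu for Anxa5. The highest group was rt-PA for Anxa1, Anxa2 and Anxa4, Model for Anxa5 and Anxa7, and rt-PA+Acu for Anxa3, Anxa6 and Anxa11. The highest mean was 13.7 times the lowest for Anxa2 and 7.65 times for Anxa1, and between 1.49 (Anxa11) and 1.92 (Anxa4) times for the other 6. Neighbouring groups in these orders overlapped at most steps. The steps without overlap were Model to rt-PA for Anxa1, rt-PA+Acu to Model for Anxa2, Sham to rt-PA for Anxa5, rt-PA+Acu to rt-PA for Anxa7, and both Model to Sham and Sham to rt-PA+Acu for Anxa11.

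After the group means were taken out, the pair of members with the highest Pearson correlation was Anxa1 with Anxa4, picked here as the highest. It was 0.82 over the 12 libraries on the log2 CPM scale. The next was Anxa5 with Anxa6, at 0.63, and the lowest Anxa2 with Anxa3, at -0.54. Anxa1 with Anxa2 had 0.26 and Anxa2 with Anxa5 0.03. These libraries share depth and cell make-up between genes, so the values are descriptions. With the groups left in, the 3 genes most like Anxa2 among 13298 were Calu (0.99), Hif1a (0.99) and Dse (0.99), which code for calumenin of the secretory pathway, the oxygen-sensing factor HIF-1 alpha and dermatan sulfate epimerase. Those most like Anxa1 were Emilin2 (0.96), Mcemp1 (0.96) and Olfml2b (0.95). For Anxa4 they were Rell1 (0.97), Nuak2 (0.94) and Nfkb2 (0.94), for Anxa5 Aloxe3 (0.97), Coro1b (0.96) and Senp3 (0.96), and for Anxa7 Morf4l2 (0.96), Msantd3 (0.96) and Zc3h15 (0.96). For Anxa3 they were Spag6 (0.95), Insr (0.92) and Ift27 (0.91), for Anxa6 Pdss2 (0.91), Pcdh9 (0.91) and Stk39 (0.90), and for Anxa11 Pdk2 (0.95), Lancl1 (0.94) and Bbs2 (0.94). All these are Pearson correlations of log2 CPM over 12 libraries, and in the main they follow the differences between groups.

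Of the 8 genes listed as annexin-binding partners, 3 were called higher in Model/Sham, and in rt-PA+Acu/rt-PA 5 were called lower, with none in the opposite direction in either. Over all genes tested, 9.43% were called higher in Model/Sham and 8.16% lower in rt-PA+Acu/rt-PA. S100a10, whose protein pairs with annexin A2, had 18.8, 18.8 and 21.5 CPM in Sham, 222, 157 and 107 in Model, 190, 124 and 147 in rt-PA, and 31.1, 37.8 and 69.3 in rt-PA+Acu. Unlike Anxa2, all its rt-PA+Acu libraries stood above Sham. Its log2 fold change was 3.06 (SE 0.25, FDR 5.02e-05) in Model/Sham, -1.74 (SE 0.31, FDR 0.00635) in rt-PA+Acu/rt-PA and 1.23 (SE 0.28, FDR 0.0476) in rt-PA+Acu/Sham. S100a10 counts per Anxa2 count stood at 1.12 to 1.60 for Sham, 0.801 to 0.981 for Model, 0.698 to 0.884 for rt-PA and 1.21 to 2.75 for rt-PA+Acu, a ratio that is read only between libraries since transcript lengths enter it. After the group means were taken out, the correlation of Anxa2 with S100a10 was 0.63.

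S100a11, whose protein binds annexin A1, had 0.647 to 1.61 CPM for Sham, 1.76 to 3.72 for Model, 6.03 to 12.8 for rt-PA and 0.697 to 1.35 for rt-PA+Acu. As for Anxa1, all 3 rt-PA libraries stood above the other 9. Its log2 fold change was 1.29 (SE 0.47, FDR 0.0449) in Model/Sham, 1.81 (SE 0.39, FDR 0.296) in rt-PA/Model and -3.07 (SE 0.39, FDR 0.00226) in rt-PA+Acu/rt-PA. With DESeq2 the first of these missed, at an adjusted p of 0.0507, and the second passed, at 0.0039. S100a4, a small calcium-binding protein linked to cell motility, was called higher in Model/Sham (log2 fold change 1.51) and in rt-PA+Acu/Sham (1.89). Dysf, the membrane repair protein dysferlin, was called lower in rt-PA+Acu/rt-PA (-2.92) and vs Model (-1.91), with 1.05 to 2.77 CPM in rt-PA+Acu against 11.4 to 18.1 in rt-PA.

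**Figure D4:**
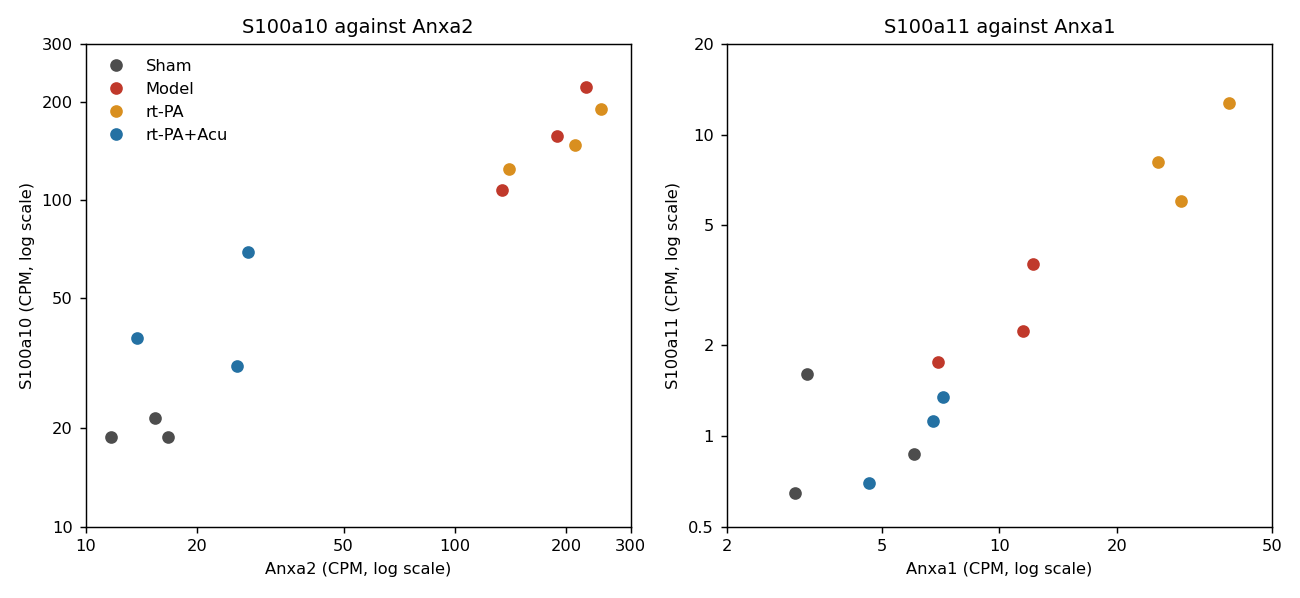
Level of S100a10 against Anxa2 (left) and of S100a11 against Anxa1 (right), both in CPM on log axes, with a point for each of the 12 libraries. At Anxa2 levels near those of Sham, S100a10 is higher in the 3 rt-PA+Acu libraries (31.1 to 69.3 CPM) than in Sham (18.8 to 21.5 CPM), and the 3 rt-PA libraries are the highest on both axes of the right panel.

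Of the genes around annexin A1 signalling, Fpr1, the formyl peptide receptor of phagocytes, had 9 to 12 counts in the Sham libraries and 14 to 32 in Model, and was called higher in Model/Sham (log2 fold change 1.18, FDR 0.0454), a call that was lost with DESeq2, at an adjusted p of 0.0877. Fpr2 had at most 5 counts and Fpr3 at most 2 in any library, so neither receptor could be compared at this depth. Pla2g4a, the cytosolic phospholipase A2 that annexin A1 restrains, had a log2 fold change of 0.76 (SE 0.17, FDR 0.005) in Model/Sham, under the 2-fold line.

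In the tPA and plasmin system that annexin A2 and S100A10 assemble, 2 of 6 genes tested were called higher in Model/Sham, and in rt-PA+Acu/rt-PA 3 were called lower and 1 higher. Over all genes tested, 9.43% were called higher in Model/Sham, and 8.16% lower and 7.17% higher in rt-PA+Acu/rt-PA. Plau, the gene of urokinase, had 0.243 to 0.699 CPM for Sham, 18.1 to 36.5 for Model, 22.0 to 36.8 for rt-PA and 1.31 to 2.92 for rt-PA+Acu. Plaur, the urokinase receptor, had 0.874 to 1.99, 12.8 to 28.9, 14.7 to 23.3 and 1.35 to 5.47 CPM in the same order. The log2 fold changes of Plau and Plaur were 5.98 and 4.06 in Model/Sham, from 3 to 8 counts of Plau in the Sham libraries, and -3.90 and -2.77 in rt-PA+Acu/rt-PA. Serpini1, the neuronal inhibitor of tissue plasminogen activator, had the opposite direction, at -0.90 (FDR 0.000188) in Model/Sham, under the 2-fold line, and 1.38 in rt-PA+Acu/rt-PA, where it was called. Plat, the rat gene of tissue plasminogen activator itself, had log2 fold changes of 0.54 (FDR 0.00759) in the first of these comparisons, under the 2-fold line, and -1.06 (FDR 0.00667) in the second, where it was called. Plg, the gene of plasminogen, had at most 29 counts in any library and was not tested.

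Of 12 genes tested that expose or recognise phosphatidylserine, the lipid to which annexin A5 binds, 1 was called higher and 4 lower in Model/Sham. Over all genes tested, 9.43% were called higher and 12% lower there. Ano6, a scramblase that brings the lipid to the outer leaflet, was the one higher, at a log2 fold change of 1.50 (SE 0.10, FDR 2.25e-05), with 76.9 to 86.3 CPM in Model against 26.7 to 30.8 in Sham. It was called lower in rt-PA+Acu/rt-PA, at -1.44 (SE 0.33, FDR 0.0141). Mfge8, Tyro3 and Mertk, which help phagocytes take up cells that expose the lipid, were called lower in Model/Sham, at -1.70, -1.46 and -1.38. In rt-PA+Acu/rt-PA Tyro3 was called higher, at 1.03, while Mfge8 and Mertk had 0.32 (FDR 0.193) and 0.18 (FDR 0.452). Mfge8 and Mertk were the 2 genes of the list called in rt-PA+Acu/Sham, both lower, at -1.46 and -1.05. Of all genes tested, 2.06% were called in that comparison.

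Among 12 genes tested for plasma membrane repair, a process in which several annexins take part, 1 was called higher in Model/Sham. That share is near the 9.43% of all genes called higher there. In rt-PA+Acu/rt-PA 2 were called lower, against 8.16% of all genes. The gene called higher was Trim72, the repair protein also called MG53, at a log2 fold change of 2.34 (SE 0.43, FDR 0.00218). It had 0.524 to 1.46 CPM in Sham and 3.72 to 5.80 in Model. The other 2 were Dysf, given above, and Myof, the gene of myoferlin, at -1.24 (SE 0.29, FDR 0.0156). With DESeq2, Trim72 and S100a4 were also called lower in rt-PA+Acu/rt-PA, at adjusted p of 0.0435 and 0.024, which edgeR put at 0.0701 and 0.0641. In rt-PA/Model edgeR called no gene at all, while DESeq2 called 3 partner genes higher, S100a11, S100a4 (log2 fold change 1.50, adjusted p 0.00495) and S100a6 (1.71, adjusted p 0.0254). DESeq2 called 0.595% of all genes there. S100a6, a further S100 protein, is named here after its values were seen.

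**Figure D5:**
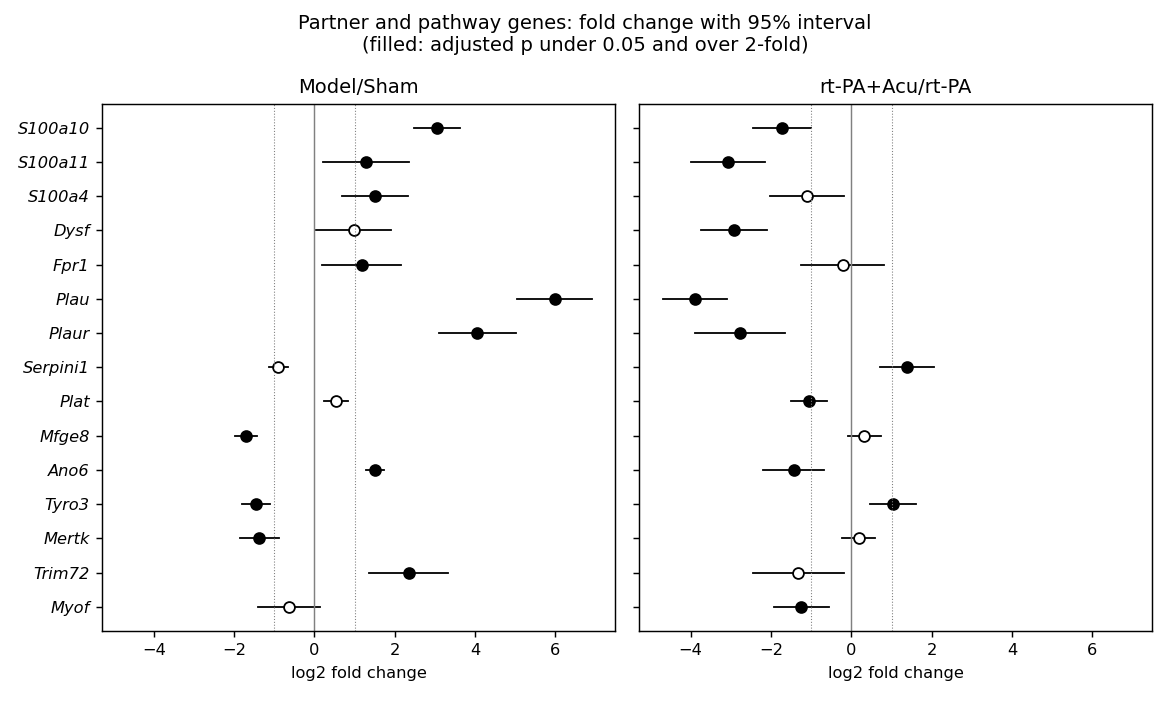
Log2 fold change (horizontal axes) with 95% interval of the 15 named partner and pathway genes in Model/Sham and in rt-PA+Acu/rt-PA, which share no library, with filled points for an adjusted p under 0.05 and over 2-fold. Plau and Plaur lie farthest to the right in the first panel, and Plau, S100a11, Dysf and Plaur farthest to the left in the second.

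The other annexins were near the limit of detection. Anxa8 had 0 to 2 counts in the Sham libraries, 3 to 8 in Model, 5 to 8 in rt-PA and 1 to 5 in rt-PA+Acu. Anxa9 had 1 to 9 counts in any library, Anxa10 at most 3 and Anxa13 at most 1. None of the 4 passed the filter on low counts, so no fold change is given for them. Markers of ependyma summed to 2.77 to 9.78 CPM over all libraries. None of the 4 symbols listed for red blood cells matched the table, and they are not analysed here.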

How the data were processed

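The deposited table, made by the authors, holds raw whole-number counts per gene symbol and library, not normalized and with no replicates pooled. Per the study's methods, paired-end reads were aligned with STAR to mRatBN7.2 and uniquely mapped pairs counted with Salmon on the Ensembl annotation; the submitters' processing notes name STAR 2.7.10a, featureCounts 2.0.1 and Salmon 1.9.0, and which of the last 2 made the table is not settled. Adapters carried molecular identifiers whose use in counting is not stated, so floors in counts hold counting error alone. Reads shared with near-identical copies of a gene were not examined.

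Groups come from the labels, which number 3 samples a group and do not say whether each is a separate rat, so p-values measure the spread between these samples. The 8 members, 5 gene lists and 11 marker lists were chosen with earlier results of these data known. Each of 5 pairs of groups was fitted on its 6 libraries with edgeR 4.0.16 in R 4.3.3 (filterByExpr, TMM, quasi-likelihood test, Benjamini-Hochberg adjustment over all genes tested). A gene was called when its adjusted p was under 0.05 and it changed by over 2-fold. Standard errors were the log2 fold change over the square root of F. CPM used TMM library sizes over 12 libraries (factors 0.949 to 1.08), and log2 CPM a prior count of 2. Genes of a list are named when called in at least 1 comparison, at most 4 per list by size of change, and 3 most-alike genes per member. Named outside this rule are Pla2g4a, Fpr2, Fpr3 and Plg, which were not called, S100a6, and single marker genes.

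Alternatives were DESeq2 1.42.0 on the same genes, other scalings and filters, 1 fit over 12 libraries, a replicate block, no fold threshold, an unadjusted p and leaving out each library. Fits were tested on simulated counts. The main fits did not pair samples by replicate number. The listed symbols Fpr2l, Plscr1, Timd4, Flt1 and Foxj1 were not analysed here, and 2 other genes of the lists are not reported here. Plots used matplotlib 3.10.9.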

Additional observations from a re-analysis of the deposited data

How the results depend on the processing

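Across the alternatives, the log2 fold changes of the 8 members kept their direction and their call (adjusted p and 2-fold together) in 512 cases, were called where they had not been in 3 and changed sign in 5. The adjusted p taken alone was less stable: with 1 library left out, the members under 0.05 numbered 4 to 6 in Model/Sham (5 with all libraries), 3 to 5 in rt-PA+Acu/rt-PA (6), 0 to 2 in rt-PA+Acu/Sham (0) and 2 to 5 in rt-PA+Acu/Model (4). All 5 sign changes were in rt-PA/Model and uncalled: leaving out 1 library moved Anxa2 between -0.061 and 0.33, Anxa7 between -0.178 and 0.006 and Anxa11 between -0.159 and 0.046, and library size alone gave Anxa11 0.002. The 3 gains were Anxa1 in rt-PA/Model with DESeq2 and Anxa6 without rt-PA+Acu replicate 3 in both comparisons given with that gene. Without the fold threshold, the counts of genes were 6951 in Model/Sham, 4522 in rt-PA+Acu/rt-PA, 651 in rt-PA+Acu/Sham and 4411 in rt-PA+Acu/Model, with 5, 6, 0 and 4 members. In rt-PA/Model, DESeq2 called 74 genes and 1 member, an unadjusted p 241 genes and 1 member, and 1 fit over all 12 libraries 2 genes, while leaving out 1 library gave 0 to 3 genes (1 without rt-PA replicate 1, 2 without rt-PA replicate 3 and 3 without Model replicate 3). In rt-PA+Acu/Sham, DESeq2 called 422 genes and an unadjusted p 583, and leaving out 1 library gave 82 to 359, with 146, 82 and 133 without Sham replicates 1, 2 and 3. In rt-PA+Acu/Model, leaving out 1 library called 1 to 2 members, 2 without rt-PA+Acu replicate 3. Correlations of deviations between libraries of the same replicate number lay between -0.254 and 0.146, and in no comparison did all 3 pairs exceed 0.1. In Model/Sham each number correlated best with its own, at 0.111, 0.0707 and 0.0511, so these values do not settle whether those samples were paired. The replicate block called 2756 genes and 2 members in Model/Sham, 0 and 0 in rt-PA/Model, 1862 and 2 in rt-PA+Acu/rt-PA, 194 and 0 in rt-PA+Acu/Sham and 1501 and 1 in rt-PA+Acu/Model. Library size alone shifted the median of all genes by up to 0.1 on the log2 scale. The causes of these changes were not tested. Depth limits Anxa1 most, with 37 to 69 counts in Sham, and 3 libraries a group limit all adjusted p-values.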
